A study of Anopheles gambiae with 3 samples.

Results

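The Anopheles gambiae probe sets whose IDs carry the mark UNKN instead of a chromosome arm were examined here. They were taken by the start of the ID alone (Ag.UNKN.), without regard to any measured value, and numbered 1938 of the 16884 mosquito probe sets and of the 22761 probe sets in the table. The other 14946 mosquito probe sets carry 1 of 5 arm marks, 2L, 2R, 3L, 3R or X, and are called placed below. Anopheles gambiae is a mosquito that transmits malaria, and the females were of the pink-eye strain. There was 1 group, made up of 3 pools (replicates 1, 2 and 3) of 5 whole females each, with 1 Affymetrix array per pool. The females took mouse blood at 4 days of age and again 48 h later, and were collected 24 h after that, so 72 h had passed since they first fed. No unfed or once-fed group was analysed here, so no value below is a response to blood. The labels call the pools biological samples. Pooling hides differences between individual females, and a change in the share of a tissue in the body cannot be told apart from a change in RNA per cell.

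In genome assemblies, sequence that could not be tied to a chromosome arm is collected under a label for unknown position. Such sequence is often rich in repeats and in heterochromatin, the compact chromatin near centromeres and on sex chromosomes, and it can also hold second copies of regions that are already placed. Genes predicted there include transposable element genes, members of multicopy families and ordinary genes on short scaffolds. The probe set IDs give neither gene names nor sequences. The reference table of 15165 mosquito genes lists genes and not probe sets. That 0 of the 1938 IDs occur in it is thus no trait of the unplaced set, and no gene could be looked up. Roles are therefore not given for the transcripts behind these probe sets, and each is called by its ID. An ID such as Ag.UNKN.55.0_CDS_s_at holds the arm mark, a cluster number (55), a further number (0), the transcript part, read here as coding sequence (CDS) or untranslated region (UTR) and absent from some IDs, and the suffix. In Affymetrix naming, a plain _at marks a probe set designed to be specific to its target. The letter a marks probes common to alternative transcripts of a gene, s marks probes common to transcripts of different genes, and x marks a set with some probes that match other sequences.

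The unplaced probe sets had another mix of suffixes than the placed ones. Plain _at was carried by 76.3% of them and 71.5% of placed probe sets. The letter s stood in 379 unplaced IDs, a share of 19.6% against 6.66%. The letter a was less frequent, with 76 IDs and 3.92% against 21.8%, and x was found in 4. By part, 1803 were marked CDS, 16 UTR and 119 had no part mark. The most frequent kind was plain CDS, with 1407 probe sets. Because these features differ, the unplaced probe sets were compared with placed ones weighted to the same mix of part mark and suffix, called the matched placed set below.

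The arrays had been scaled by the authors to a common trimmed mean of 500.3 in each pool. Probe sets for the malaria parasite Plasmodium, which no label says was present, served as background. The cut-off was the 95th percentile of these 4502 probe sets in each array, which came to 57.4, 51.8 and 64.4 for pools 1, 2 and 3. The parasite median itself was 9.32, 9.48 and 12.1, highest in pool 3. A probe set above the cut-off in all 3 pools is called detected. By this rule 77 parasite probe sets (1.71%) were detected. Intensity depends on the probes as well as on the transcript, so levels are given as distributions over probe sets and not as amounts of 1 transcript against another. Probe sets are not replicates either, and the spread that bears on a comparison is that over the 3 pools. An exact sign-flip permutation test over 3 pools cannot give a two-sided p below 0.25, so no difference could pass 0.05 by that test.

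Unplaced transcripts were mostly dim, with a small bright part. Medians of the unplaced set were 55.2, 54.8 and 65.0 for pools 1, 2 and 3. These medians lie at the cut-off: about as many unplaced probe sets were above it as below it in each pool. The middle part of the distribution ran from 18.1 to 192.3 in pool 1, from 16.5 to 194.0 in pool 2 and from 19.6 to 201.3 in pool 3 (lower and upper quartile). The upper end reached much further, with 95th percentiles of 1647, 1664 and 1679.8 and highest values of 31026, 32917 and 32777. The medians of the matched placed set were 291.4, 285.5 and 293.7.

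On the log2 scale the unplaced median lay below the matched placed median in every pool. The difference, unplaced minus matched placed, was -2.40, -2.38 and -2.17 for pools 1, 2 and 3. Its mean was -2.32 ± 0.12 (SD, n = 3), a 4.99-fold lower median. It was many times its spread over pools, with the same sign in 3 of 3 pools (exact sign-flip permutation test, two-sided, p = 0.25, the smallest possible). With log2(intensity + 50) in place of log2 intensity, which compresses dim values, the difference was -1.65 ± 0.064 (SD, n = 3).

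**Figure D1:**
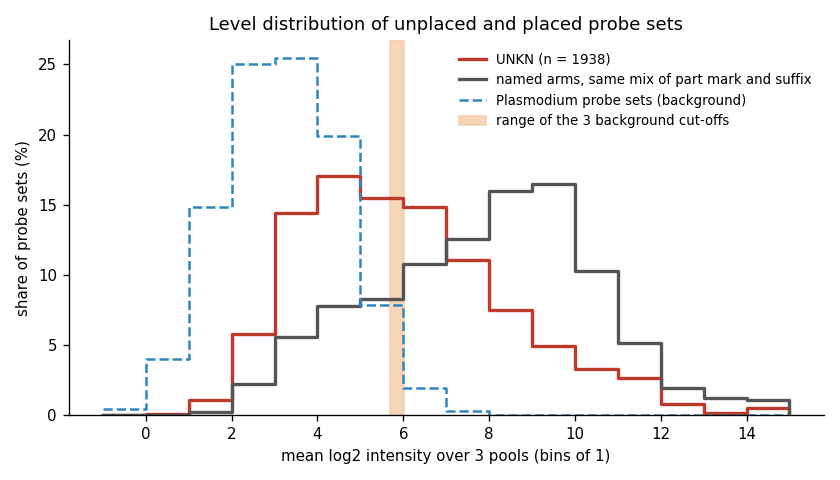
Share of probe sets (%) by mean log2 intensity over the 3 pools, in bins of 1, for the 1938 unplaced (UNKN) probe sets, the placed probe sets weighted to the same part marks and suffixes, and the Plasmodium probe sets. The shaded band spans the 3 background cut-offs. The unplaced curve peaks between 4 and 5, with 17.1% of its probe sets, and the matched placed curve between 9 and 10, with 16.5%.

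The distribution of levels showed a single broad peak below the cut-off with a long bright tail. The fullest bin of unplaced probe sets, between 4 and 5 on the log2 scale, held 331 of them, and that of the matched placed set lay between 9 and 10. Parasite probe sets peaked lower than either, between 3 and 4, with 25.5%. From 10 upwards the unplaced counts were 64, 52, 16, 4 and 10 per bin of 1 log2 unit. The last bin, from 14 to 15, thus held more than the one before it, and 9 of its 10 members carried the letter s.

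Fewer unplaced than placed probe sets were above background in each pool. In pool 1, 956 (49.3%) were above the cut-off, against 77.9% in the matched placed set. The counts were 992 (51.2% against 78.8%) in pool 2 and 970 (50.1% against 77.6%) in pool 3. The difference was -27.9 ± 0.53 percentage points (SD, n = 3), again with 1 sign in 3 of 3 pools (exact sign-flip permutation test, two-sided, p = 0.25). Its size was many times the spread between pools.

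Over all pools together, 780 unplaced probe sets (40.2%) were detected. The share was 72.1% among all mosquito probe sets and 76.2% among placed ones, and also 72.1% in the matched placed set. Another 764 (39.4%) were above the cut-off in no pool, against 16.4% of all mosquito probe sets and 16.0% of the matched placed set. The remaining 394 (20.3%) passed it in 1 or 2 pools, where the placed share was 10.4%. The dim probe sets below the cut-off in every pool were therefore a large minority of the unplaced, and became a majority (1158) only together with those that crossed it in some pools. A limma fit over all 16884 mosquito probe sets, testing whether the mean log2 intensity exceeded the cut-off, called 767 unplaced probe sets (adjusted p below 0.05), where 71.7% of all mosquito probe sets were called. Of the 780 detected, 756 were among these. The 764 that passed in no pool could not be called by this one-sided test, because their mean does not exceed the cut-off.

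The dim members were not at the parasite level. Among unplaced probe sets above the cut-off in no pool, the median intensities were 14.9, 14.0 and 16.0 for pools 1, 2 and 3. Placed probe sets under the same condition had medians of 15.5, 15.3 and 18.0, close to these but higher in every pool. Parasite probe sets under the same condition had lower medians, at 7.85, 7.76 and 10.1. Between pools, the log2 intensities of the dim unplaced probe sets correlated at 0.47 to 0.51 across the 764 probe sets. This is a description across probe sets of the same arrays, which share probe design and background.

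Bright unplaced transcripts were a minority. Bright is used here for probe sets above the median of all placed probe sets (361.3, 352.5 and 356.9 in pools 1 to 3) in every pool. Of the unplaced, 276 (14.2%) were bright, against 42.9% of all mosquito probe sets and 41.9% of the matched placed set. Without the letters s and x the bright share was 9.20%, and in plain CDS it was 5.47% (77 of 1407), against 38.5% of placed plain CDS. Detected but not bright, that is not above that median in every pool, were 504 (26.0%), a share near the 30.2% of the matched placed set. Above the placed 95th percentile (4023, 4050.3 and 4018) in every pool were 25 unplaced probe sets (1.29%), here called very bright, where the share of all mosquito probe sets was 4.10%. Against the matched placed set, the bright share was thus lower and the share that passed in no pool higher. The class detected but not bright differed less than either.

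Among CDS probe sets, the gap between unplaced and placed differed with the suffix. Among plain CDS probe sets, 429 of 1407 unplaced (30.5%) were detected, against 70.6% of 9078 placed. The 5 arms taken singly ran from 68.9% on X to 71.2% on 2L, so the unplaced value lay far outside the range of arms. For CDS probe sets with the letter s, 218 of 338 unplaced (64.5%) were detected, against 71.0% of 822 placed, and the arms ran from 56.3% to 74.3%. That unplaced value fell inside the range of arms. The level with s was lower all the same, with a median geometric mean over pools of 196.0 unplaced and 326.1 placed. Bright, as defined above, were 32.8% of these unplaced and 46.1% of the placed, and 24.0% and 17.2% passed the cut-off in no pool. For CDS with the letter a the shares were 40 of 54 (74.1%) and 88.5%.

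With the letter a, the median level did not follow the detected share. Median intensities of the 54 unplaced CDS probe sets with this letter were 796.8, 896.8 and 953.5 for pools 1, 2 and 3, and those of the 2350 placed ones 679.5, 658.4 and 650.8. The unplaced median was the higher one in each pool, by 0.40 ± 0.17 on the log2 scale (SD, n = 3; exact sign-flip permutation test, two-sided, p = 0.25). Over all 76 unplaced probe sets with the letter a, whatever the part mark, this difference was 0.37 ± 0.096 (SD, n = 3). The lower median of the unplaced set as a whole therefore did not hold for this kind.

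Shares above background in single pools showed the same order. For plain CDS they were 40.7%, 43.3% and 41.5% unplaced in pools 1 to 3, and 76.8%, 77.3% and 76.3% placed. With the letter s they were 70.4%, 70.7% and 69.2% unplaced, and 75.4%, 78.3% and 77.0% placed. The gap, unplaced minus placed, was -35.0 ± 1.06 percentage points (SD, n = 3) for plain CDS and -6.81 ± 1.56 with the letter s. The values of the groups did not overlap over the pools in either case. The difference between these gaps was 31.1, 26.4 and 27.0 points in pools 1 to 3, a mean of 28.2 ± 2.57 (SD, n = 3; exact sign-flip permutation test, two-sided, p = 0.25). It exceeded its own spread in every pool.

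**Figure D2:**
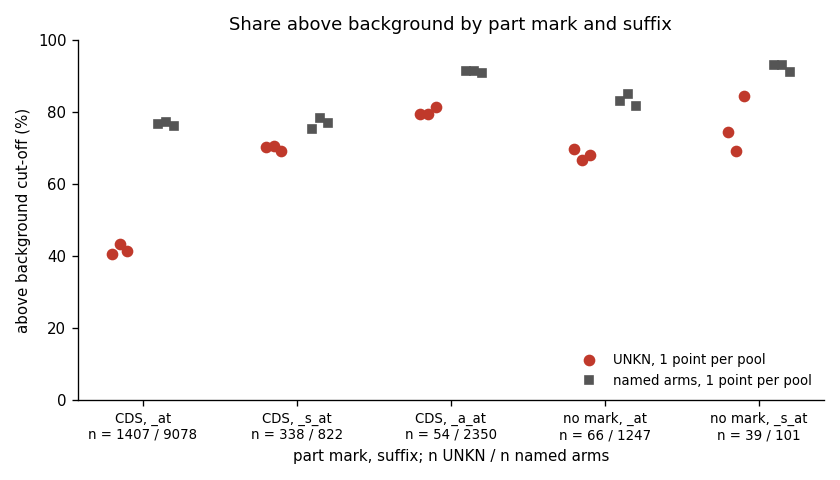
Share of probe sets above the background cut-off (%) in each pool, for the 5 kinds of part mark and suffix with at least 20 unplaced probe sets; circles are unplaced (UNKN) and squares placed probe sets, 1 point per pool. In plain CDS the unplaced points lie between 40.7% and 43.3% and the placed points between 76.3% and 77.3%, and with the letter s the points lie closer, between 69.2% and 78.3%.

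Probe sets without a part mark lay between. Plain unmarked probe sets were detected in 39 of 66 unplaced cases (59.1%) against 76.9% of placed, a gap in single pools of -15.2 ± 2.82 points (SD, n = 3). Unmarked ones with the letter s were detected in 26 of 39 cases (66.7%) against 88.1%, with a gap of -16.3 ± 8.92 points. The spread of the latter was the widest of the 5 kinds with at least 20 unplaced members, with 84.6% above the cut-off in pool 3 and 69.2% in pool 2. Without a part mark the mean gap was thus not smaller with the letter s than in plain probe sets, unlike in CDS. The 16 UTR probe sets were few. Of these 14 (87.5%) were detected, where the placed share was 96.3%, and the gap of -5.92 ± 3.14 points in single pools comes with 1 more probe set above the cut-off in pools 2 and 3 than in pool 1. Of the 4 with the letter x, 3 were detected, and all 8 placed ones were.

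The letter s was concentrated among the bright members. It was carried by 11.4% of the 764 that passed the cut-off in no pool. Of the 504 detected but not bright 22.6% carried it, and of the 276 bright ones 132 (47.8%). Among placed probe sets it was carried by 7.33% of those that passed in no pool and by 7.43% of the bright ones, nearly the same share. The letter a went from 1.18% to 17.4% over the same unplaced classes, and from 8.83% to 31.3% over the placed. Plain probe sets made up 87.3% of the dimmest unplaced class and 34.4% of the bright. Which transcripts the probes with the letter s match was not known, and whether their signal comes from a placed gene was not tested.

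Nearly all of the most intense unplaced probe sets carried the letter s. The geometric mean over pools exceeded 10000 for 13 unplaced probe sets, 12 of them with s, 1 with a and 0 plain. Of the 283 placed probe sets above this level, 69 (24.4%) carried s and 80 were plain. The brightest member, Ag.UNKN.380.0_CDS_s_at, gave 31026, 32917 and 32777 for pools 1, 2 and 3. Its mean was 32239.9 ± 1054 (SD, n = 3), and stood at rank 20 of all mosquito probe sets. Its coefficient of variation between pools was 3.27%, and it was 508.7 times the cut-off in the pool with the lowest ratio. Next, Ag.UNKN.1841.0_CDS_s_at read 23618, 25244 and 26398, and Ag.UNKN.97.0_CDS_s_at read 22315, 22058 and 27043. Pool 3 was the highest for both, more clearly for the latter.

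Probe sets of shared clusters were also present among the brightest. Cluster 55 was read by Ag.UNKN.55.0_CDS_s_at at 21049.6, 20471 and 21219, and by Ag.UNKN.55.0_CDS_a_at at 19991, 19857 and 21405. These readings come from a common target cluster and are not independent. In cluster 8, Ag.UNKN.8.0_CDS_s_at read 17418, 15171 and 15877, and Ag.UNKN.8.0_CDS_x_at read 7086, 7632 and 6805. The order of the pools differed between these: pool 1 was highest for the former and pool 2 for the latter. The brightest without a part mark, Ag.UNKN.2276.1_s_at, Ag.UNKN.2427.0_s_at and Ag.UNKN.578.1_s_at, had means of 18905 ± 2104, 17156 ± 1689 and 16135 ± 1380 (SD, n = 3), each with its highest value in pool 3 and its lowest in pool 2.

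**Figure D3:**
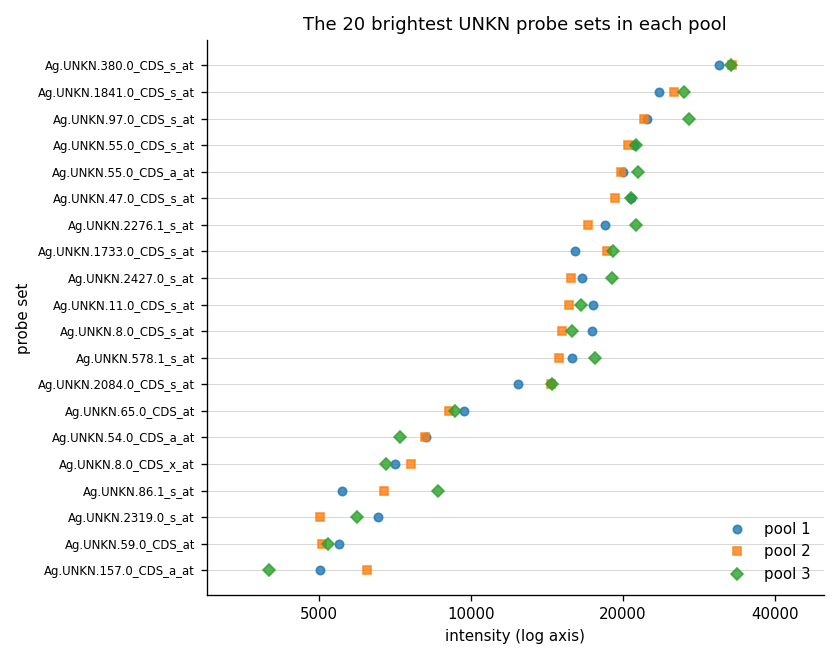
Intensity (log axis) in each pool of the 20 unplaced probe sets with the highest mean log2 intensity, 1 row per probe set and 1 marker per pool. The 13 highest rows lie above 10000 in every pool and 12 of these carry the letter s; the coefficient of variation over the 20 rows runs from 1.88% to 22.0%.

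Plain members, whose probes were designed for 1 target, reached lower maxima. The brightest, Ag.UNKN.65.0_CDS_at, read 9712, 9039 and 9330.4 (mean 9361 ± 338, SD, n = 3) and stood at rank 313 of all mosquito probe sets. Ag.UNKN.59.0_CDS_at read 5480.0, 5075 and 5219, and Ag.UNKN.229.0_CDS_at read 4094, 4186 and 4182. The coefficients of variation of these 3 were 3.61%, 3.90% and 1.25%, so they were among the steadiest of the very bright. The brightest with the letter a after cluster 55 was Ag.UNKN.54.0_CDS_a_at, at 8141, 8113 and 7250.0. UTR members peaked at 5020 (pool 1), 4695 and 4453 for Ag.UNKN.113.1_UTR_a_at. Ag.UNKN.63.0_UTR_a_at and Ag.UNKN.53.0_UTR_a_at had means of 4689 ± 486 and 4320.4 ± 342 (SD, n = 3). After Ag.UNKN.8.0_CDS_x_at, the letter x gave only moderate levels, with a mean of 333.8 ± 70.9 for Ag.UNKN.36.0_CDS_x_at and of 337.1 ± 92.0 for Ag.UNKN.15.0_CDS_x_at.

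Cluster number, which the choice of members did not use, went with level. The sources used here do not say what the number stands for, and the bins and the boundary of 300 were chosen with the values in view. Of the 221 unplaced probe sets with cluster numbers up to 300, 189 (85.5%) were detected and 129 were bright. Of the 1717 with higher numbers, 591 (34.4%) were detected and 147 were bright. In single pools the share above the cut-off was 87.8%, 89.1% and 87.3% for the low numbers, and 44.4%, 46.3% and 45.3% for the high ones. The difference was 42.8 ± 0.66 percentage points (SD, n = 3; exact sign-flip permutation test, two-sided, p = 0.25). It was 43.0 with a boundary of 200 and 37.0 with a boundary of 400.

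Median intensities followed the same division. They were 628.5, 672.6 and 628.6 in pools 1 to 3 for the low numbers, and 46.4, 44.2 and 51.4 for the high ones. The low-numbered members were thus above the cut-off of their pool by a wide margin in the median, and the high-numbered below it. Among placed probe sets the numbers up to 300 gave 82.9% detected and the higher numbers 75.2%. Because the boundary was chosen with the values in view, the sizes of the unplaced and placed steps cannot be compared. In the bins up to 3000, the placed share was highest from 301 to 400 (96.7%) and lowest from 2001 to 3000 (61.5%). The arms number their clusters separately, up to 5336 on 2R and 1842 on X, and the unplaced numbers ran from 4 to 2704.

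The step by cluster number was steepest in plain CDS probe sets. In bins of 100 numbers, 23 of 27, 24 of 28 and 21 of 26 unplaced plain CDS probe sets were detected up to number 300. From 301 to 400, 22 of 44 were, and from 401 to 500, 13 of 63 (20.6%). Above 500 the shares stayed between 23.3% and 31.0%. Placed plain CDS probe sets gave 69.5% in the numbers up to 100, 63.5% from 101 to 200, 84.9% from 201 to 300 and 96.3% from 301 to 400, and 55.3% in the numbers 2001 to 3000. With the 3 bins up to number 300 pooled, the unplaced plain CDS probe sets were detected in 84.0% of cases and the placed in 72.3%. The unplaced share was the higher one in the bins up to 200, and from 201 to 300 it was 80.8%, below the placed 84.9%. With higher numbers the shares were 27.2% and 70.4%.

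With a suffix letter the decline was shallower. Detected shares were 91.1% (41 of 45) in the numbers up to 100, 64.5% (20 of 31) from 301 to 400 and 50.8% (32 of 63) from 1501 to 2000. The placed shares in these bins were 90.1%, 97.7% and 72.0%. From 2001 to 3000 the unplaced share was 66.1% (37 of 56), where the placed share was 70.4%. For the letter s alone, 59 of 68 low-numbered (86.8%) and 187 of 311 high-numbered (60.1%) unplaced probe sets were detected. The placed shares were 88.5% and 71.0%. Levels with s differed more than these shares. Medians of the geometric mean over pools were 531.5 unplaced and 3236 placed for low numbers, and 158.1 and 323.1 for high ones. For the letter a the counts were 51 of 58 (87.9%) and 7 of 18 (38.9%), where the placed shares were 94.5% and 88.6%. The decline was thus steeper with the letter a than with s, over only 18 high-numbered members.

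**Figure D4:**
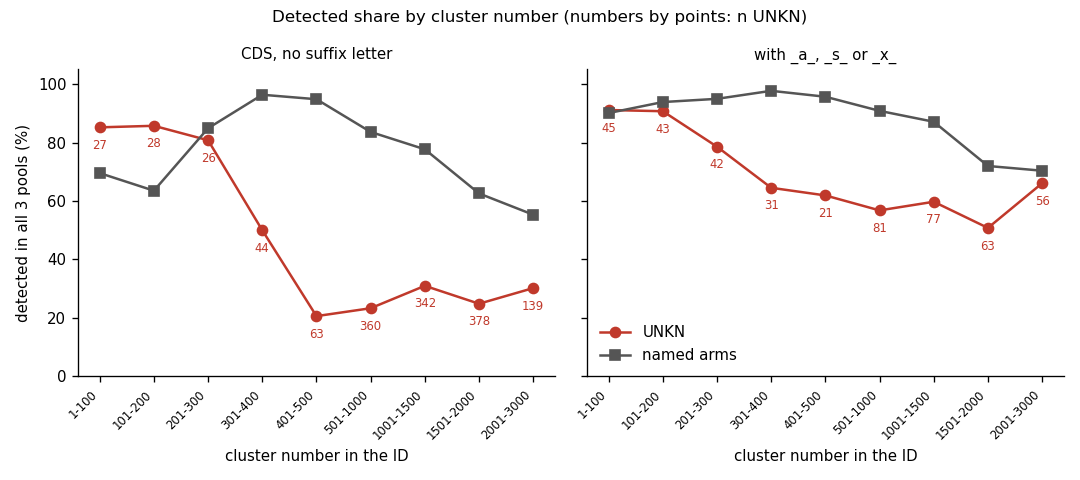
Share of probe sets detected in all 3 pools (%) by the cluster number in the ID, for CDS probe sets without a suffix letter (left) and for all probe sets with a letter (right); circles are unplaced (UNKN), with their number beside them, and squares are placed probe sets. On the left the unplaced share goes from 85.2% in the first bin to 20.6% in the numbers 401 to 500, while the placed share is never below 55.3% in the bins shown, which end at 3000.

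Low numbers were also where the UTR mark and the letter a gathered. Of the 16 unplaced UTR probe sets, 15 had cluster numbers up to 300, and so had 58 of the 76 with the letter a. Most others did not: 68 of the 379 with the letter s and 20 of the 119 without a part mark had such numbers. Among all 1938 unplaced, 221 (11.4%) had them. The 88 members with the highest numbers, from 2201 to 2704, all lacked a part mark, and 53 of them (60.2%) were detected. Bright members had low numbers in 129 of 276 cases (46.7%), and those that passed the cut-off in no pool in 23 of 764 (3.01%). Placed probe sets gave 18.2% and 9.08% for the same classes. Of the very bright, 64.0% of the unplaced and 60.7% of the placed had low numbers. Cluster number, part mark and suffix thus went together in the unplaced set, and their separate parts in the level were not tested beyond the shares given.

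Few unplaced clusters had more than 1 probe set. There were 1865 clusters, 1795 of them with a single probe set, 67 with 2 and 3 with 3. In the 70 with several, all probe sets were detected in 33 (47.1%), none in 20 (28.6%) and some in 17 (24.3%). For placed clusters with several probe sets these shares were 78.9%, 6.24% and 14.9%. Members in such clusters were detected more often, in 85 of 143 cases (59.4%), than members alone in theirs, in 695 of 1795 (38.7%), and 73 of the 143 had low cluster numbers.

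The 3 largest clusters differed from each other. In cluster 138, Ag.UNKN.138.0_CDS_a_at read 1996, 1754 and 1676, and Ag.UNKN.138.0_UTR_at read 2278, 1655 and 2011. The remaining probe set of that cluster, Ag.UNKN.138.0_UTR_a_at, was dimmer in every pool, at 237.9, 224.1 and 276.4. In cluster 203 none of the 3 was detected. Ag.UNKN.203.2_a_at read 15.8, 5.52 and 39.7 and passed in no pool, while Ag.UNKN.203.0_CDS_a_at (60.9, 77.4 and 39.0) and Ag.UNKN.203.2_at (66.0, 52.9 and 28.5) each passed in pools 1 and 2. In cluster 293, Ag.UNKN.293.0_CDS_at was steady at 482.6, 369.3 and 424.3. Its partner with the letter s, Ag.UNKN.293.0_CDS_s_at, read 40.8, 117.3 and 179.0 and missed the cut-off in pool 1. Ag.UNKN.293.1_CDS_a_at read 108.8, 175.8 and 223.8. Cluster 10, with a low number, lay near the cut-off in both readings. Ag.UNKN.10.0_CDS_a_at was detected, at 67.5, 106.7 and 89.8, and Ag.UNKN.10.2_CDS_a_at, at 45.3, 42.8 and 81.8, passed in pool 3 only.

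Detected unplaced transcripts were about as steady between pools as placed ones of the same level. The SD of centred log2 intensities over the 3 pools had a median of 0.22 over the 780 detected unplaced and 0.17 over the detected placed probe sets. Within the same 10 classes of level, the weighted medians were 0.24 and 0.23, a difference of 0.0064. Recomputed from each pair of pools this difference was 0.018, -0.0085 and 0.0048, with a mean of 0.0048 ± 0.013 (SD over 3 pairs, which share pools). The difference was smaller than that spread and changed sign between pairs. An SD above 0.5 log2 was found in 88 detected unplaced probe sets (11.3%), against 6.09% of all detected mosquito probe sets, without regard to level.

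**Figure D5:**
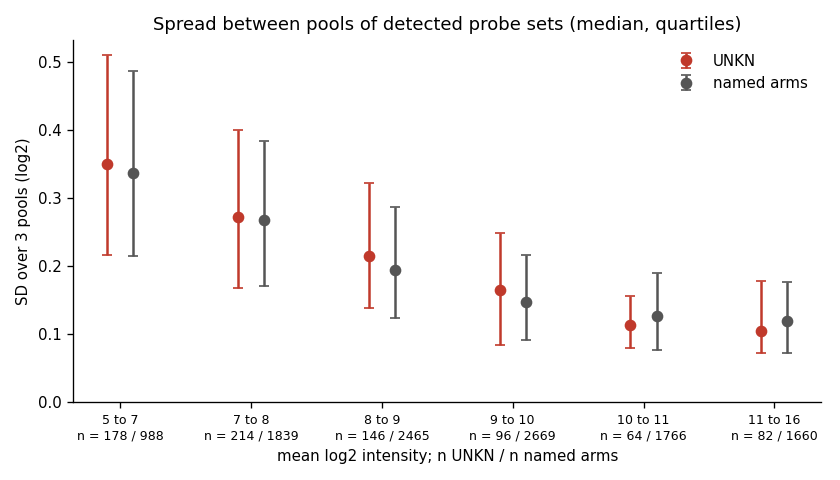
SD over the 3 pools of centred log2 intensity (median, with bars from lower to upper quartile) of detected unplaced (UNKN) and placed probe sets, by mean log2 intensity. The medians of unplaced and placed probe sets lie within each other's quartile bars in every class, from 0.35 and 0.34 in the dimmest to 0.10 and 0.12 in the brightest.

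The spread fell with level in the unplaced set as in the placed. It was 0.29 log2 in the median for the 504 members detected but not bright, 0.13 for the 276 bright ones and 0.077 for the 25 very bright. Only 1 bright member had an SD above 0.5, Ag.UNKN.227.0_CDS_s_at, singled out after its values were seen, at 594.8, 1238 and 961.5 for pools 1, 2 and 3. The largest SD of all detected unplaced probe sets, 1.40 log2, belonged to Ag.UNKN.111.0_CDS_a_at at 334.0, 1705 and 1806. Pool 1 stood apart there, below the placed median, and pools 2 and 3 were close to each other. With 1 array per pool this has no replicate check.

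The next most variable members came closer to the cut-off. Ag.UNKN.385.0_CDS_at read 73.8, 276.7 and 78.9 (SD 1.07 log2), high in pool 2, and Ag.UNKN.2078.0_CDS_at read 137.5, 53.5 and 202.6 (SD 1.00), low in pool 2. Ag.UNKN.1682.0_CDS_s_at was lowest in pool 3 (267.7, 198.9 and 71.0), and Ag.UNKN.985.0_CDS_at was highest there (110.9, 284.5 and 392.5). The pool that stood apart was not the same in these probe sets. Among very bright members the steadiest was Ag.UNKN.1565.0_CDS_s_at, at 5064, 4813 and 4869.

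Log2 intensities of the detected unplaced probe sets correlated at 0.96 to 0.97 between pools, and across the 276 bright ones it was 0.98. Across detected placed probe sets it was 0.98. These are correlations across probe sets within the same arrays, and the wider range of levels in a set raises them. A difference of more than 2-fold after centring was seen in 43 of 780 between pools 1 and 2, in 35 between pools 1 and 3 and in 43 between pools 2 and 3. These are 5.51%, 4.49% and 5.51% of the detected unplaced probe sets, against 2.37%, 2.37% and 2.54% of all detected mosquito probe sets, without regard to level.

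Some unplaced members lay close to the cut-off, where the call depends on it. Of the 780 detected, 218 (27.9%) were under 2-fold above it in their lowest pool, against 12.3% of all detected mosquito probe sets. Over 10-fold above it in every pool were 195 (25.0%), against 42.7%. Of the 1158 not detected, 247 (21.3%) were at no less than 0.5 of it in every pool, against 24.5% of all mosquito probe sets not detected. The detected unplaced members thus lay nearer the cut-off than detected mosquito probe sets in general. Just inside were Ag.UNKN.1532.0_CDS_at (57.364, 182.7 and 88.9), Ag.UNKN.398.0_CDS_at (57.9, 70.7 and 87.1) and Ag.UNKN.544.0_CDS_at (123.5, 142.7 and 65.1). Just outside were Ag.UNKN.1247.1_at (155.3, 51.8 and 67.6), Ag.UNKN.751.0_CDS_at (89.0, 51.6 and 99.2) and Ag.UNKN.1887.0_CDS_at (57.0, 101.6 and 79.7). These 6 overlap in level, and a single pool set the call for each.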

How the data were processed

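Biotin-labelled cRNA from 3 pools of whole females was hybridised to 1 Affymetrix array each. The authors deposited linear intensities, with a value for each probe set and array. GCOS version 1.1.1 is named in the submitters' processing notes, and the sources used here do not give the summarisation method, probe annotation or genome build. The mean after trimming 2% at each end was 500.3 in every array, so the arrays share a scale. No detection calls or scanner values were used, and the precision is limited by the number of arrays.

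Part mark, suffix and cluster number were read from the IDs (Python 3.11.15, pandas 2.3.3). Matching weighted placed probe sets to the unplaced mix of 10 kinds of part mark and suffix. The share above the cut-off and the median log2 intensity were compared within each array, and the differences were tested over arrays with an exact sign-flip permutation test, two-sided. The spread is the SD of log2 intensities centred on each array's median over detected mosquito probe sets, compared within 10 classes of level. limma 3.58.1 tested log2 intensity over the cut-off, one-sided, with Benjamini-Hochberg adjustment over all mosquito probe sets. Matching and limma were tested on simulated data.

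Probe sets named by ID were the 20 brightest, the 3 brightest of each part mark and suffix, the 5 most variable detected, the 5 steadiest very bright, the 3 on either side of the cut-off, and those of the 3 clusters with 3 probe sets and of the 2 lowest-numbered of the 67 with 2. The members were set by the start of the ID alone. That rule, the classes and the lists were chosen with earlier results of these data known.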

Additional observations from a re-analysis of the deposited data

How the results depend on the processing

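Each difference in share or median level between unplaced and matched placed probe sets kept its sign under the alternatives that could be run. The unplaced minus placed share above the cut-off in single pools ran from -35.0 to -24.8 points, and the median log2 difference from -2.65 to -1.65. The difference by cluster number ran from 37.0 to 51.7 points, and the difference between the gaps of s and plain CDS from 25.5 to 32.4. Since 3 pools cannot give a p below 0.25, these tests bear only on direction. The detected share of 40.2% became 45.3% with the 90th and 31.1% with the 99th percentile as cut-off, 49.7% with 2 pools required, 34.1% without s and x, 30.5% in plain CDS alone and 34.4% above cluster number 300, and ran from 42.7% to 43.8% without 1 pool. The difference in detected share of -31.9 points became -29.7, -33.9, -28.4, -37.7, -40.1 and -36.3 under the same settings in that order, -35.9 without matching, and ran from -31.0 to -30.5 without 1 pool. The bright share of 14.2% became 16.3% with 2 pools required, 9.20% without s and x, 13.4% with 1 probe set per cluster, 5.47% in plain CDS alone and 8.56% above cluster number 300, and ran from 14.7% to 15.1% without 1 pool. The drops to 9.20%, 5.47% and 8.56% follow from leaving out kinds of probe set with larger bright shares. The difference in spread between pools ran from -0.0081 to 0.014 without 1 pool, and stayed within the spread over pairs otherwise. Restricting to cluster numbers above 300 and the other boundaries were chosen after seeing the data. The differences in share tested in single pools could not be recomputed where the call joins pools (2 pools required, limma), nor the s against plain comparison without s. The median log2 difference does not use the call and stayed at -2.32 in those 2 settings. With log2(intensity + 50), 9 of 49 named probe sets moved by more than their SD over pools. Dim members near the cut-off are limited by background. The comparisons in single pools are paired by array, and with 1 treatment no further pairing of groups was made.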
